A study of Mus musculus with 12 samples.

Results

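The 10 transcripts described here are typical of macrophages and of antigen-presenting cells and were measured in CD8+ T cells sorted from tumors. They encode the C1q chains (C1qa, C1qb, C1qc), lysozyme 2 (Lyz2), apolipoprotein E (Apoe), the CSF1 receptor (Csf1r), the MHC class II chains and their invariant chain (H2-Aa, H2-Ab1, Cd74) and cathepsin B (Ctsb). These 10 of the 52636 genes in the count table were taken to be myeloid RNA carried along in the sorted fraction. Which cells their reads came from was not tested. They were chosen on their measured levels in these same libraries, for a lower level after anti-PD-L1. The difference between anti-PD-L1 and non-treated libraries is therefore given as a description throughout, and no test on it is used as support. All 10 passed the filter on low counts in every fit.

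The libraries came from A2AR eGFP reporter mice on a C57BL/6 background, which carry a bacterial artificial chromosome transgene that places EGFP under the control of Adora2a, the gene of an adenosine receptor (A2AR), so that GFP reports the transgene and not the protein itself. Mice carried subcutaneous AT3ova tumors, a mammary carcinoma line expressing ovalbumin, from an injection of 500000 cells. CD8+ tumor-infiltrating lymphocytes were sorted at day 21 into GFP+ and GFP- cells, from mice left without treatment or given anti-PD-L1 at days 14 and 18. There were 3 libraries for each of the 4 conditions, GFP+ non-treated (KT13, KT15, KT17), GFP- non-treated (KT14, KT16, KT18), GFP+ anti-PD-L1 (KT19, KT21, KT23) and GFP- anti-PD-L1 (KT20, KT22, KT24), and each library was a pool of 3 mice.

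C1q is the recognition part of the classical complement pathway and is built from A, B and C chains, which tissue macrophages make themselves. Lysozyme, apolipoprotein E and the CSF1 receptor belong to the common program of monocytes and macrophages, and MHC class II with its invariant chain is shared by macrophages, dendritic cells and B cells. Mature T cells are not a usual source of C1q or of the CSF1 receptor, whereas cathepsin B is a lysosomal protease of most cells, T cells included. In tumors, C1q and apolipoprotein E mark a large group of resident-like macrophages.

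The libraries held between 11292699 and 19023900 counted reads. Counts were scaled to CPM, the reads of a gene relative to the normalized size of its library, and because a 3′ library gives reads from transcript ends only, CPM is used here to compare libraries and not to compare the abundance of different genes. Adora2a, the gene the reporter follows, was 2.86 times as high in GFP+ as in GFP- non-treated libraries (adjusted p = 0.0270 by edgeR's quasi-likelihood fit over all genes, Benjamini-Hochberg) and 2.90 times as high after anti-PD-L1 (adjusted p = 0.0226). KT13 and KT21 stood apart, with median Spearman correlations with the other libraries of 0.941 and 0.936 against 0.967 to 0.977 for the rest. Values are over all 12 libraries unless stated otherwise, and some are also given without KT13 and KT21. Reads of the T cell marker Cd8a ranged from 799 to 1360 CPM over the libraries, and the 10 transcripts together made up 0.0269% to 0.0631% of the normalized reads. Fewer cells of a type and less RNA per cell cannot be told apart in such bulk libraries. Values of single libraries follow in the order in which the codes of each condition are listed above.

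**Figure D1:**
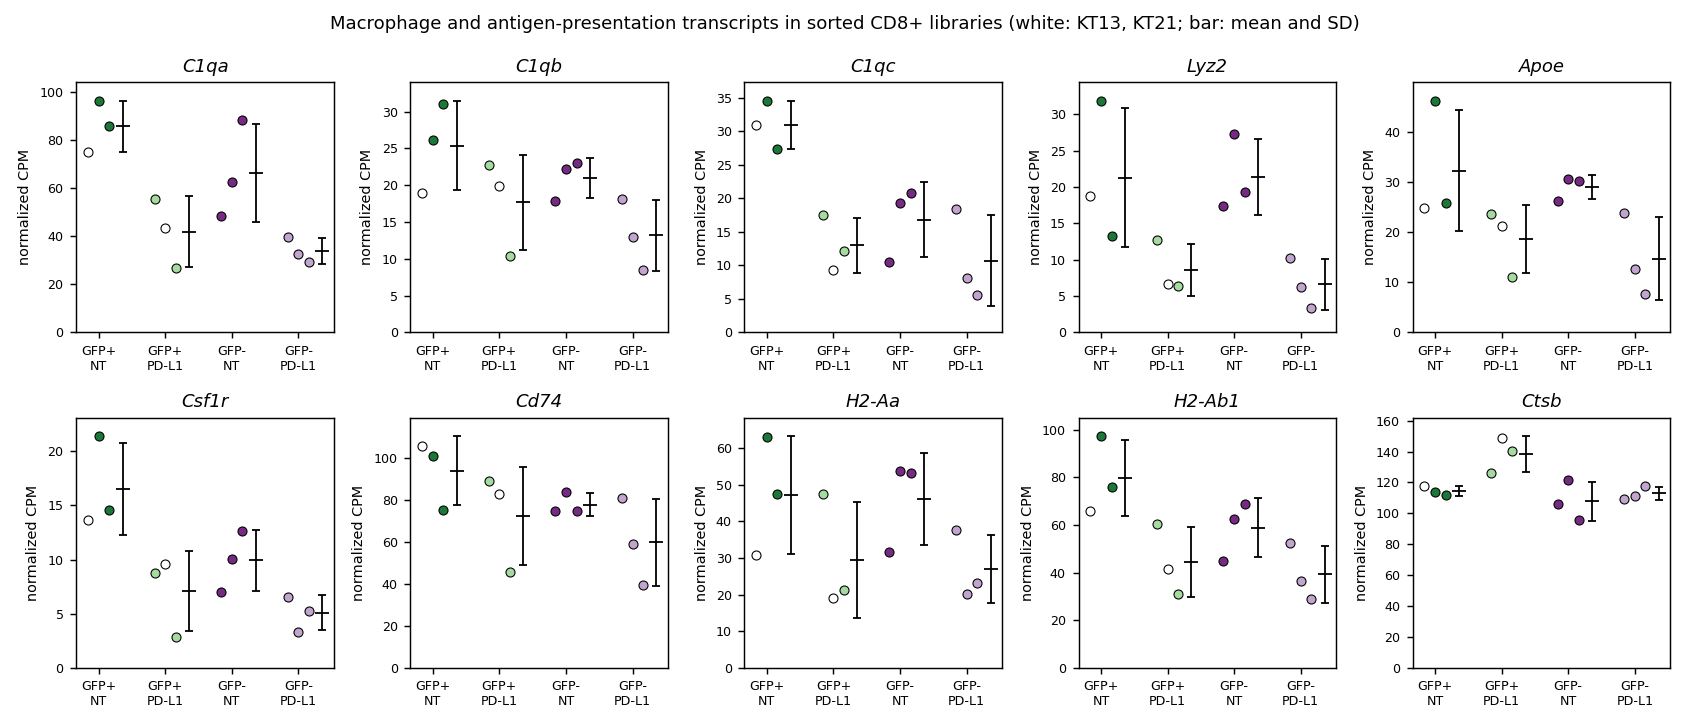
Normalized CPM (vertical axes, starting at 0) of each of the 10 transcripts in the 12 libraries, by condition (NT, non-treated; PD-L1, anti-PD-L1). Each dot is a library, white dots are KT13 and KT21, and the bar is the mean with its SD (n = 3); for 9 of the 10 transcripts the anti-PD-L1 mean was below the non-treated mean of the same GFP fraction, and Ctsb was the exception.

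C1qa gave 75.04, 96.2 and 85.7 CPM in GFP+ non-treated libraries, 48.2, 62.5 and 88.3 in GFP- non-treated, 55.7, 43.5 and 26.6 in GFP+ anti-PD-L1 and 39.5, 32.7 and 29.2 in GFP- anti-PD-L1 libraries. Every anti-PD-L1 library lay below every non-treated library of its GFP fraction, and in the non-treated mice the GFP fractions overlapped through KT18. C1qc gave 31.0, 34.5 and 27.3 CPM in GFP+ non-treated libraries and 10.4, 19.3 and 20.8 in GFP- non-treated ones, which did not overlap. After anti-PD-L1 it was at 17.5, 9.33 and 12.2 CPM in GFP+ and at 18.4, 8.06 and 5.59 in GFP- libraries, so that the GFP- conditions overlapped through KT20. C1qb gave 18.96, 26.2 and 31.0 CPM in GFP+ non-treated, 17.9, 22.2 and 23.0 in GFP- non-treated, 22.7, 19.9 and 10.4 in GFP+ anti-PD-L1 and 18.2, 12.97 and 8.46 in GFP- anti-PD-L1 libraries. Its anti-PD-L1 and non-treated libraries overlapped in both GFP fractions, but no longer in GFP+ cells once KT13 and KT21 were left out.

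Between anti-PD-L1 and non-treated GFP+ libraries the log2 fold change was -1.03 (SE 0.263) for C1qa, -0.52 (SE 0.314) for C1qb and -1.25 (SE 0.388) for C1qc. In GFP- cells it was -0.97 (SE 0.264), -0.67 (SE 0.316) and -0.66 (SE 0.387). The summed C1q level was 142 ± 16.1 CPM (SD, n = 3) in GFP+ non-treated, 104 ± 27.8 in GFP- non-treated, 72.6 ± 23.3 in GFP+ anti-PD-L1 and 57.7 ± 16.7 in GFP- anti-PD-L1 libraries. C1qa held a similar part of the C1q reads throughout, 60.3% ± 0.931 in GFP+ non-treated, 63.3% ± 3.40 in GFP- non-treated, 57.3% ± 2.96 in GFP+ anti-PD-L1 and 60.1% ± 7.82 in GFP- anti-PD-L1 libraries (SD, n = 3 each). The treatments overlapped within each GFP fraction.

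The C1q genes lie next to each other on the minus strand of chromosome 4 (GRCm38), C1qb at 136880129 to 136886187, C1qc at 136889804 to 136893065 and C1qa at 136895917 to 136898803, within 18.7 kb, and no other annotated gene overlaps them. Because these chains varied together across the libraries, their promoters are shown where RefSeq gave one (C1qb and C1qc, build GRCm38.p6, from 250 bases before to 50 bases after the transcription start, read 5′ to 3′ on the minus strand, chr4:136886151-136886450 and chr4:136892865-136893164). Capitals mark GAGGAA or its reverse complement TTCCTC, the core of many sites of PU.1, the transcription factor of myeloid cells encoded by Spi1.
C1qb: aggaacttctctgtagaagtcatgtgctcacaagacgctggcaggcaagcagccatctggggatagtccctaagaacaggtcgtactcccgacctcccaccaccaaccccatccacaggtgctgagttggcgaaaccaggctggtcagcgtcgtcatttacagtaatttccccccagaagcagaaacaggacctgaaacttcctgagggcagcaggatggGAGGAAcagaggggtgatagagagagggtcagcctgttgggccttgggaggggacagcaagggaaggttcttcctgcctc
C1qc: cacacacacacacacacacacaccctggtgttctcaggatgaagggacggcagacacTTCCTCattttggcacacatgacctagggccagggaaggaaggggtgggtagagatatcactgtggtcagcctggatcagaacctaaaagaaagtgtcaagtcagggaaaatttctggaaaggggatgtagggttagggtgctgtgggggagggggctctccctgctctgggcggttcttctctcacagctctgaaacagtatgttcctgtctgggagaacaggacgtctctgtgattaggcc
The match began 30 bases before the start in C1qb and 193 bases before it in C1qc. These letters, searched on both strands, occurred in 28.3% of the 32851 promoters of the same length, so a match is common and is given as a description of the sequence only. RefSeq promoters were found for 5 of the 10 genes. Beside C1qb and C1qc, some of the promoter entries of Apoe held these letters, and those of Lyz2 and H2-Aa did not.

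Lyz2, the lysozyme of myeloid cells, gave 18.8, 31.9 and 13.3 CPM in GFP+ non-treated, 17.4, 27.3 and 19.4 in GFP- non-treated, 12.8, 6.60 and 6.44 in GFP+ anti-PD-L1 and 10.3, 6.27 and 3.32 in GFP- anti-PD-L1 libraries. Its groups did not overlap between treatments in either fraction, although KT17 and KT19 were close at 13.3 and 12.8 CPM. Its log2 fold changes after anti-PD-L1, -1.31 (SE 0.415) in GFP+ and -1.69 (SE 0.421) in GFP- cells, were the largest of the 10 transcripts in each fraction over 12 libraries. Without KT13 and KT21 the GFP+ value was -1.23 for Lyz2 and -1.63 for Csf1r, so the ranking in GFP+ cells depended on those libraries. The neighboring paralog Lyz1, 5.5 kb away on the same strand, went from 7.64 ± 4.09 to 2.15 ± 0.972 CPM in GFP+ and from 6.28 ± 1.18 to 2.62 ± 2.12 CPM in GFP- libraries (mean ± SD, n = 3), and reads that fit both genes make the split between them uncertain.

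Apoe, which encodes the lipid carrier apolipoprotein E, gave 24.8, 46.2 and 25.9 CPM in GFP+ non-treated, 26.2, 30.6 and 30.3 in GFP- non-treated, 23.7, 21.3 and 10.96 in GFP+ anti-PD-L1 and 23.8, 12.7 and 7.70 in GFP- anti-PD-L1 libraries. KT15 was far above the others, and the highest anti-PD-L1 libraries of both fractions came within 3 CPM of the lowest non-treated ones without crossing them. Against non-treated libraries its log2 fold change was -0.79 (SE 0.377) in GFP+ and -0.98 (SE 0.379) in GFP- cells, and the GFP+ value moved to -0.44 when KT15 was left out.

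Csf1r, the receptor for CSF1 and IL-34 on which most tissue macrophages depend, had 38 to 338 reads per library. It gave 13.6, 21.4 and 14.6 CPM in GFP+ non-treated, 7.04, 10.1 and 12.7 in GFP- non-treated, 8.76, 9.63 and 2.81 in GFP+ anti-PD-L1 and 6.58, 3.35 and 5.29 in GFP- anti-PD-L1 libraries. It was highest in GFP+ non-treated libraries, all of which exceeded all GFP- non-treated ones, and the groups did not overlap between treatments. Between treatments its log2 fold change was -1.23 (SE 0.410) in GFP+ and -0.97 (SE 0.413) in GFP- cells. Csf1, the ligand of this receptor, which activated T cells also make, had its lowest mean where Csf1r had its highest and its highest where Csf1r had its lowest, with 64.2 ± 20.6 CPM in GFP+ non-treated, 101 ± 28.2 in GFP- non-treated, 96.1 ± 46.5 in GFP+ anti-PD-L1 and 139 ± 26.3 in GFP- anti-PD-L1 libraries. Over 12 libraries no comparison of Csf1 was called, the nearest being GFP+ anti-PD-L1 against non-treated 0.58 higher on the log2 scale (SE 0.344, adjusted p = 0.853, edgeR).

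H2-Ab1, the beta chain of MHC class II I-A, gave 65.9, 97.3 and 76.1 CPM in GFP+ non-treated, 44.9, 62.5 and 68.9 in GFP- non-treated, 60.5, 41.6 and 31.1 in GFP+ anti-PD-L1 and 52.4, 36.4 and 29.0 in GFP- anti-PD-L1 libraries. In GFP+ cells the treatments did not overlap, and in GFP- cells KT20 exceeded KT14. H2-Aa, the matching alpha chain, gave 30.9, 63.0 and 47.6 CPM in GFP+ non-treated, 31.7, 53.8 and 53.1 in GFP- non-treated, 47.5, 19.03 and 21.3 in GFP+ anti-PD-L1 and 37.5, 20.2 and 23.1 in GFP- anti-PD-L1 libraries. Here KT19 and KT20 overlapped the non-treated libraries, and KT13 and KT14 were the low ones among those. Without KT13 and KT21 the GFP+ conditions did not overlap, by the narrow margin of KT19 at 47.54 against KT17 at 47.55 CPM. Cd74, the invariant chain that guides class II to the endosome, gave 106, 101 and 75.04 CPM in GFP+ non-treated, 74.6, 83.8 and 74.5 in GFP- non-treated, 88.8, 82.5 and 45.8 in GFP+ anti-PD-L1 and 80.7, 58.9 and 39.3 in GFP- anti-PD-L1 libraries. Its treatments overlapped in both fractions.

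The log2 fold changes after anti-PD-L1 were smaller for this group than for Lyz2, namely -0.84 (SE 0.272) and -0.58 (SE 0.271) for H2-Ab1, -0.69 (SE 0.366) and -0.78 (SE 0.367) for H2-Aa and -0.37 (SE 0.268) and -0.38 (SE 0.268) for Cd74, in GFP+ and GFP- cells respectively. H2-Ab1 (plus strand, chromosome 17, 34257689 to 34269419, GRCm38) and H2-Aa (minus strand, 34282744 to 34287823) lie 13.3 kb apart in the MHC, and no annotated gene overlaps either. The promoter of H2-Aa is shown because class II genes are known for shared promoter boxes that the class II transactivator works through (RefSeq, GRCm38.p6, chr17:34287774-34288073, minus strand, 5′ to 3′). Capitals mark TGACGTCA, the letters of a cAMP response element, and ATTGG, the reverse complement of the Y box core CCAAT.
H2-Aa: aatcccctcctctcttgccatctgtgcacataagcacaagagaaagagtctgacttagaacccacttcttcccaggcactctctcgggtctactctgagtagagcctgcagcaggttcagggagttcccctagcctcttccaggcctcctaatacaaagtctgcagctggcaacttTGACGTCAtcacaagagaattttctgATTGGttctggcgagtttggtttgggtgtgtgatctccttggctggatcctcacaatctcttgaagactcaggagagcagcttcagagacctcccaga
TGACGTCA began 74 bases and ATTGG 48 bases before the transcription start. On either strand, TGACGTCA occurred in 1.79% and CCAAT in 37.4% of the 32851 promoters of this length, and TGACGTCA was chosen for the search after this sequence had been seen.

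Ctsb, the lysosomal protease cathepsin B, did not follow the other 9. It gave 118, 114 and 112 CPM in GFP+ non-treated, 106, 121 and 95.7 in GFP- non-treated, 126, 149 and 140.1 in GFP+ anti-PD-L1 and 109, 111 and 118 in GFP- anti-PD-L1 libraries. All GFP+ anti-PD-L1 libraries were above all libraries of the other conditions, and those others overlapped. The treatment difference of Ctsb was 0.27 (SE 0.140) in GFP+ and 0.07 (SE 0.140) in GFP- cells on the log2 scale, and its highest library was 1.56 times its lowest, against 2.68 (Cd74) to 9.59 (Lyz2) times for the others. The end of Ctsb overlaps the end of Fdft1, a gene on the opposite strand, over 774 bases, and Csf1r overlaps the end of Hmgxb3 in the same way over 873 bases. Whether reads were counted by strand is not given in the sources used here, so reads there cannot be told apart; Fdft1 itself ranged from 13.2 to 26.6 CPM and Hmgxb3 from 10.4 to 16.9 CPM.

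**Figure D2:**
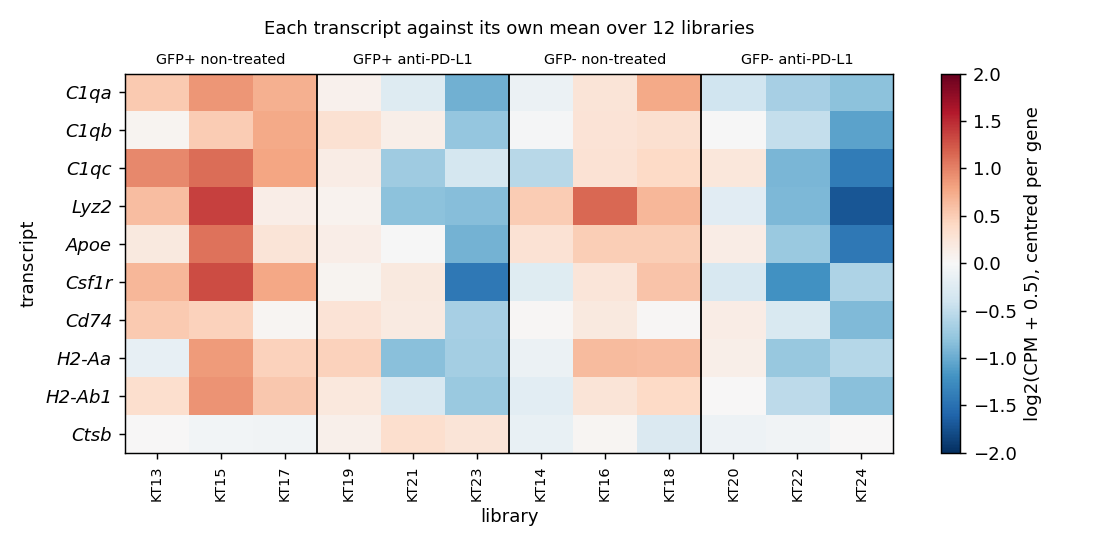
Each transcript's log2(CPM + 0.5) minus its own mean over the 12 libraries (color, red above and blue below the mean), with transcripts in rows and libraries in columns by condition. Of the 9 transcripts other than Ctsb, all 9 were above the mean in KT15, KT16, KT17, KT18 and the anti-PD-L1 library KT19, and 8 were in KT13. All 9 were below it in KT22, KT23 and KT24, and KT14, KT20 and KT21 were mixed.

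The 9 transcripts other than Ctsb varied together from library to library, also within a condition. Over the 12 libraries, the Pearson correlation of a transcript's centred log2(CPM + 0.5) with the mean of the other members ran from 0.831 for H2-Aa to 0.981 for H2-Ab1, and was -0.363 for Ctsb. With the condition means removed it ran from 0.687 for Csf1r to 0.980 for H2-Ab1, and was -0.365 for Ctsb. These are descriptions over 12 libraries that share a normalization, and each point carries the depth of its library. KT15 ranked among the 4 highest libraries in 9 of the 9 transcripts, whereas KT22 and KT24 ranked among the 4 lowest in all 9 and KT23 in 8. Among the anti-PD-L1 libraries KT19 and KT20 were the nearest to the non-treated ones, with mean ranks of 5.89 and 7.33 of 12.

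Summed over the 10 transcripts, the level was 547 ± 72.6 CPM (SD, n = 3) in GFP+ non-treated, 455 ± 60.9 in GFP- non-treated, 391 ± 78.7 in GFP+ anti-PD-L1 and 323 ± 66.3 in GFP- anti-PD-L1 libraries. The ranges were 502 to 631, 385 to 493, 308 to 464 and 269 to 397 CPM in the same order, so the GFP+ non-treated libraries lay above all others and each remaining condition overlapped the next. Without Ctsb the means were 433, 347, 253 and 209.9 CPM, and the GFP+ and GFP- non-treated ranges, 384 to 517 and 278 to 391 CPM, overlapped. Over all 10 transcripts, the anti-PD-L1 level was 0.715 times the non-treated level in GFP+ and 0.710 times in GFP- cells. These ratios include Ctsb, which was not lower after anti-PD-L1. Leaving out KT13 and KT21 gave 0.677 in GFP+ cells.

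After anti-PD-L1, 9 of the 10 transcripts had a log2 fold change below 0 in each GFP fraction, with a median of -0.82 in GFP+ and -0.72 in GFP- cells, against medians of -0.007 and -0.005 over all 14173 genes tested. Of the 10, 6 (C1qa, C1qc, Lyz2, Apoe, Csf1r and H2-Ab1) were lower without overlap in GFP+ cells, where 5.67% of all genes were, and 4 (C1qa, Lyz2, Apoe and Csf1r) were in GFP- cells, where 6.26% of all genes were. Leaving out any single library kept those 9 below 0 in both fractions, with values between -2.15 (Lyz2 in GFP- cells without KT20) and -0.11 (Cd74 in GFP+ cells without KT23). The transcripts were named for this difference, so nothing is read from these counts. By edgeR's adjusted p under 0.05, 0 of 10 passed in GFP+ cells (0.0141% of all genes passed) and 0 of 10 in GFP- cells (0% of all genes), with 5 of 10 at an unadjusted p under 0.05 in each fraction (6.74% of all genes in GFP+ and 3.44% in GFP- cells). DESeq2 called 1 in each, C1qa in GFP+ (0.656% of all genes were called) and Lyz2 in GFP- cells (0.233% of all genes). Without KT13 and KT21, edgeR called C1qa in GFP+ cells (0.563% of all genes were called) and C1qa and Lyz2 in GFP- cells (0.373% of all genes).

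**Figure D3:**
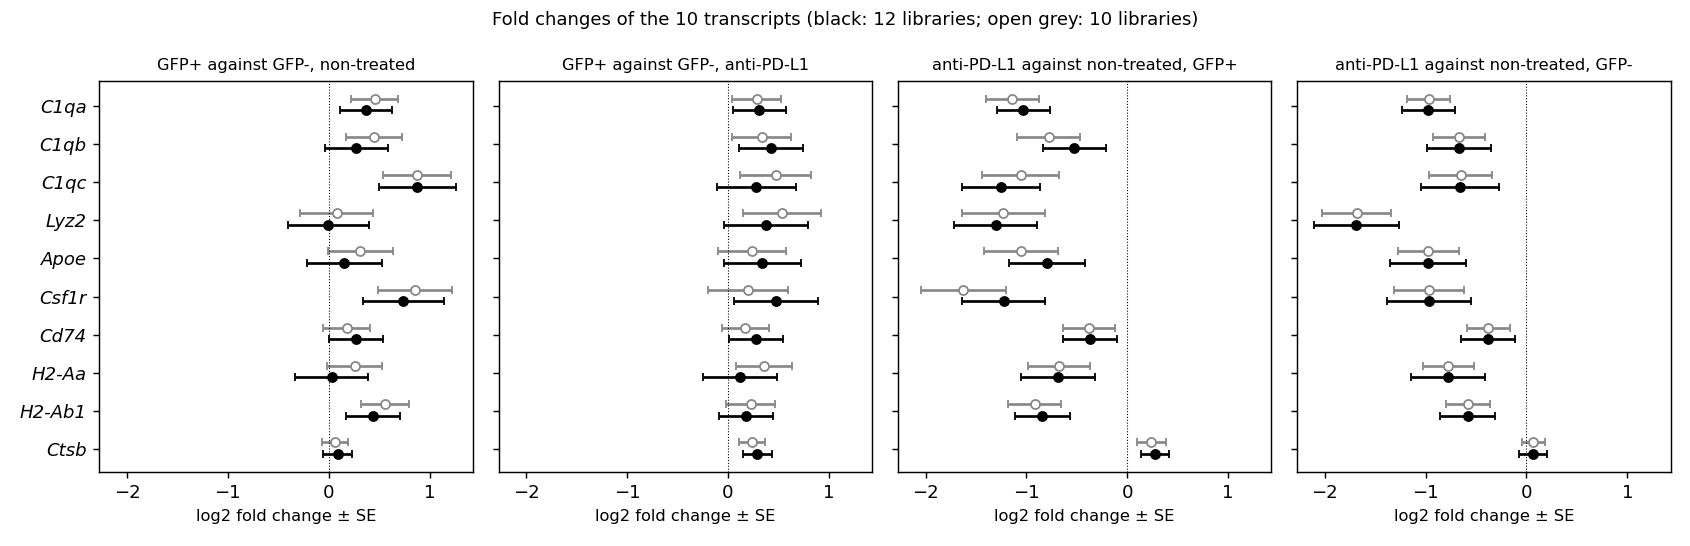
Log2 fold changes with their SE (horizontal axes) of the 10 transcripts in 4 comparisons, from edgeR fits over all 12 libraries (black) and over the 10 libraries without KT13 and KT21 (open grey). In both treatment panels 9 of 10 points lie left of 0 and Ctsb lies right of it; in the GFP panels the points lie between -0.002 and 0.88.

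The transcripts were named for the treatment difference, but the comparison of GFP+ with GFP- cells draws on the same libraries. That choice could favor transcripts high in the GFP+ non-treated libraries, so the directions given here are not independent of it. The GFP comparison asks whether cells with an active Adora2a reporter carried more of this RNA. No member differed by the test, which took GFP+ and GFP- libraries as unpaired. In non-treated mice the log2 fold change of GFP+ against GFP- was above 0 for 9 of 10 transcripts, with a median of 0.27 against 0.002 over all genes, and 0 of 10 were called by edgeR (0.00706% of all genes were) or by DESeq2 (0.374% of all genes). The largest was C1qc, at 0.88 (SE 0.382), with an unadjusted p that alone of the 10 was under 0.05, as it was for 6.05% of all genes, and an adjusted p of 0.802 (edgeR), and it was higher in 3 of 3 GFP+ libraries. Csf1r followed at 0.74 (SE 0.403, adjusted p = 0.863, edgeR), C1qa was at 0.37 (SE 0.260, adjusted p = 0.893, edgeR), and Lyz2 at -0.002 (SE 0.403) did not lean either way. C1qc and Csf1r, 2 of 10, were higher in GFP+ cells without overlap, where 6.19% of all genes were. Without KT13 and KT21, all 10 log2 fold changes were above 0, 4 were higher without overlap (C1qb, C1qc, Csf1r and H2-Ab1) where 12.3% of all genes were, and still 0 of 10 were called (0.339% of all genes were), with 3 of 10 at an unadjusted p under 0.05 (9.24% of all genes).

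After anti-PD-L1 all 10 log2 fold changes of GFP+ against GFP- were above 0, between 0.12 for H2-Aa and 0.48 for Csf1r, with a median of 0.30. Again 0 of 10 were called by edgeR (0.0282% of all genes were) or by DESeq2 (0.332% of all genes), and 0 of 10 had an unadjusted p under 0.05 (4.08% of all genes). Only Ctsb was higher in GFP+ cells without overlap, at 0.29 (SE 0.140, adjusted p = 0.993, edgeR), where 5.31% of all genes were. Over the 10 libraries the count called was also 0 (0.17% of all genes). The summed level in GFP+ cells was 1.20 times that in GFP- cells in non-treated and 1.21 times in anti-PD-L1 mice. Single libraries moved these values: H2-Aa after anti-PD-L1 ran from -0.42 without KT19 to 0.46 without KT20, and Lyz2 in non-treated mice from -0.42 without KT15 to 0.25 without KT17.

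The interaction of GFP and treatment, which asks whether the treatment difference itself differed between GFP fractions, was not called for any member by edgeR (0% of all genes were called, over 12 or over 10 libraries) or by DESeq2 (0% of all genes), and 0 of 10 had an unadjusted p under 0.05 (2.08% of all genes). The estimates ran from -0.60 (SE 0.544) for C1qc to 0.38 (SE 0.581) for Lyz2, and the test told none of them apart from 0. With these SEs a difference of this size in either direction could be missed.

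MHC class II was also set against C1q, as summed reads. Reads of Cd74, H2-Aa and H2-Ab1 per read of C1qa, C1qb and C1qc were 1.62, 1.66 and 1.38 in KT13, KT15 and KT17, and 1.98, 1.93 and 1.49 in the GFP- non-treated libraries KT14, KT16 and KT18. After anti-PD-L1 they were 1.97 to 2.05 in GFP+ and 2.11 to 2.25 in GFP- libraries, above all non-treated libraries of the same fraction. The means were 1.55 ± 0.152 and 2.01 ± 0.0430 in GFP+ and 1.80 ± 0.269 and 2.17 ± 0.0686 in GFP- cells (SD, n = 3). This ratio comes from the same comparison that named the transcripts and is likewise a description. No test compared the gene groups, and the order did not hold for every pair of genes. By the log2 fold changes above, C1qb was less lowered than H2-Ab1 and H2-Aa in GFP+ cells. In GFP- cells C1qb and C1qc were less lowered than H2-Aa. The difference in the summed ratio was as large without KT13 and KT21, at 1.52 and 2.03 in GFP+ cells.

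**Figure D4:**
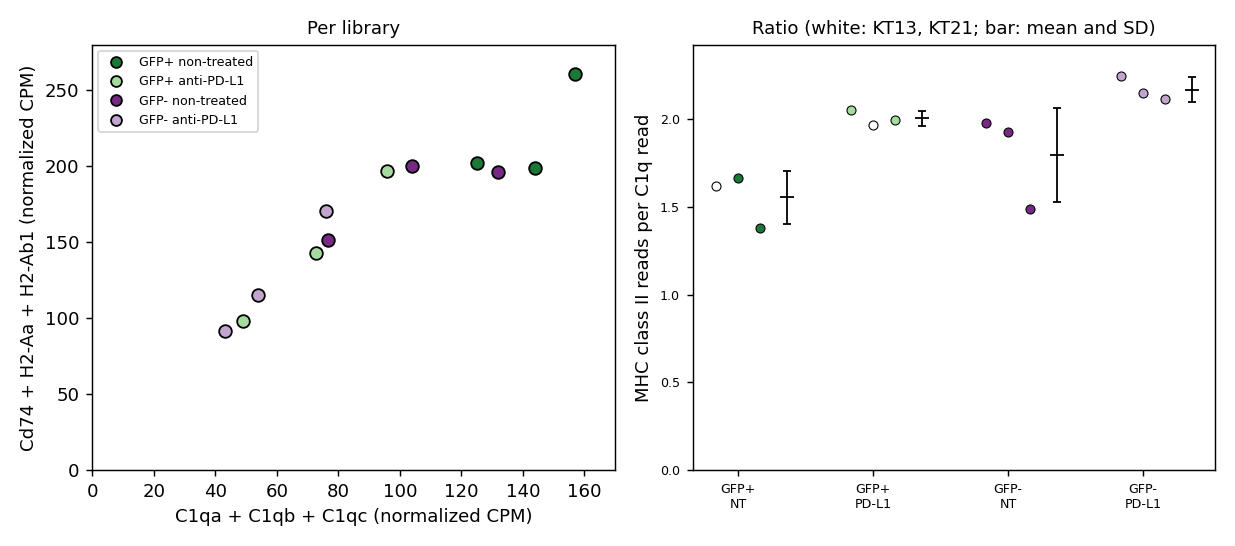
Left, summed CPM of Cd74, H2-Aa and H2-Ab1 (vertical) against summed CPM of C1qa, C1qb and C1qc (horizontal), 1 point per library, colored by condition. Right, the ratio of these sums by condition, with the mean and SD (n = 3); the anti-PD-L1 libraries lie between 1.97 and 2.25 and the non-treated ones between 1.38 and 1.98.

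Other macrophage genes were set beside the 10 from a list of 26. Of these 22 could be tested, Mrc1, Cd163 and Folr2 were too low, and Vsig4 had no read in any library. Adgre1, which encodes the defining macrophage antigen F4/80, was barely detected at 0.445 to 1.997 CPM, and Cd68 ranged from 11.7 to 20.7 CPM. Of the 22, 19 were below 0 after anti-PD-L1 in each GFP fraction, with medians of -0.75 and -0.80, and 0 were called. Cd68 itself was at 15.1 ± 0.295 and 16.5 ± 1.93 CPM in GFP+ and at 17.8 ± 3.10 and 13.6 ± 1.74 CPM in GFP- libraries before and after treatment (SD, n = 3). Selenop, a selenium carrier made by macrophages and liver, was at 12.5 ± 3.77 and 11.4 ± 2.05 in GFP+ and at 15.0 ± 3.17 and 12.4 ± 1.10 CPM in GFP- libraries. No gene of the list was called, so these 2 are given by a rule on mean CPM, and their log2 fold changes after anti-PD-L1 were 0.13 and -0.39 for Cd68 and -0.13 and -0.28 for Selenop, in GFP+ and GFP- cells.

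The wider antigen-presentation list of 14 genes, 13 tested, had medians of -0.16 and -0.03 after anti-PD-L1, with 8 and 7 genes below 0. Within it, H2-Eb1, the beta chain of I-E whose gene neighbors those of I-A, was close to the class II members, at 54.8 ± 14.3 and 31.3 ± 15.6 CPM in GFP+ and at 39.7 ± 12.6 and 27.9 ± 5.09 CPM in GFP- libraries. Cd86, a costimulatory ligand that activated T cells also carry, ran against them and was lower in GFP+ than GFP- cells, at 27.2 ± 3.002 against 47.2 ± 6.47 CPM in non-treated mice, or -0.80 (SE 0.215) on the log2 scale, which did not pass over 12 libraries (adjusted p = 0.478, edgeR) and passed over 10 (-0.89, adjusted p = 0.0473, edgeR). Among 14 complement and CSF1 pathway genes, 8 were tested and 6 and 7 were below 0 after anti-PD-L1, with 0 called. The median was -1.10 in GFP+ (-1.55 over 10 libraries) and -0.76 in GFP- cells. The summed level of the list was nevertheless 1.19 and 1.24 times the non-treated one. Most of that sum was reads of Csf1, described above. Cfp, the properdin gene, was at 4.24 ± 2.002 and 2.98 ± 1.53 CPM in GFP+ and at 3.60 ± 1.55 and 1.73 ± 1.09 in GFP- libraries.

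Lysosomal and lipid-handling genes, 18 listed and 17 tested, had medians of -0.12 and -0.11 after anti-PD-L1, with 10 and 12 below 0 and 0 called. Ctsd, the protease cathepsin D, was at 492 ± 37.4 and 681 ± 88.5 CPM in GFP+ and at 619 ± 32.4 and 763 ± 63.8 CPM in GFP- libraries before and after treatment. These did not overlap in either fraction. Its log2 fold change was 0.47 (SE 0.140) in GFP+ and 0.30 (SE 0.140) in GFP- cells, neither called (adjusted p = 0.426 and 1, edgeR). Psap, the precursor of the saposins, was at 338 ± 26.8 and 312 ± 48.4 in GFP+ and at 332 ± 32.0 and 307 ± 3.98 CPM in GFP- libraries.

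Markers of several other cell types moved with the 10 transcripts, and their part in the result was not tested. The summed level of 12 stromal and vessel genes, 7 tested, was 41.0 to 91.5 CPM in GFP+ non-treated, 22.3 to 62.5 in GFP- non-treated, 10.4 to 28.2 in GFP+ anti-PD-L1 and 11.7 to 26.8 in GFP- anti-PD-L1 libraries. All 7 of these in GFP+ and 6 in GFP- cells were below 0, and Col3a1, a fibroblast collagen, went from 11.4 ± 7.95 to 1.996 ± 2.77 CPM in GFP+ and from 7.25 ± 9.04 to 2.24 ± 2.78 CPM in GFP- libraries. Pecam1, the endothelial CD31 that leukocytes also carry, was at 21.3 ± 3.53 and 12.8 ± 2.93 in GFP+ and at 14.1 ± 1.62 and 13.4 ± 4.33 CPM in GFP- libraries. The 10 neutrophil genes summed to 12.3 to 16.4, 9.84 to 21.0, 6.60 to 9.26 and 7.45 to 8.34 CPM in the conditions in the same order, with S100a9, Csf3r, Cxcr2, Retnlg and Ly6g too low to test. The 5 tested were below 0 in both fractions. Hdc, the histidine decarboxylase gene, was at 3.37 ± 1.75 and 2.40 ± 1.10 in GFP+ and at 2.69 ± 0.709 and 1.09 ± 0.832 CPM in GFP- libraries. Il1b, an inflammatory cytokine of myeloid cells on this list, was at 6.85 ± 1.601 and 3.10 ± 1.01 in GFP+ and at 6.54 ± 2.75 and 2.04 ± 0.539 CPM in GFP- libraries, without overlap between treatments.

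The 12 tumor epithelial genes, 7 tested, summed to 241 to 326, 242 to 356, 141 to 222 and 206 to 313 CPM in that order, with Krt5, Krt7 and Krt14 too low to test. All 7 had a log2 fold change below 0 after anti-PD-L1 in both GFP fractions, with medians of -0.94 in GFP+ and -1.09 in GFP- cells, and 0 were called (edgeR). Most of these reads were of Cdh1, the E-cadherin gene, at 228 ± 47.5 and 153 ± 26.0 CPM in GFP+ and at 246 ± 42.8 and 227 ± 59.7 CPM in GFP- libraries. The sum of this list therefore mainly follows Cdh1, and which cells its reads came from was not tested. Lcn2 was at 20.7 ± 6.95 and 10.7 ± 7.99 in GFP+ and at 13.3 ± 8.37 and 6.24 ± 3.35 CPM in GFP- libraries. Of 10 B cell genes only 3 could be tested, and Cd79a and Ms4a1 were among those too low, while Ighm was at 154 ± 14.5 and 108 ± 16.3 in GFP+ and at 103 ± 5.80 and 74.3 ± 7.04 CPM in GFP- libraries. Cd79b, a chain of the B cell receptor complex, was at 5.07 ± 1.33 and 5.10 ± 1.93 in GFP+ and at 3.82 ± 0.297 and 3.004 ± 1.31 CPM in GFP- libraries. The 11 dendritic cell genes, 5 tested with Flt3, Xcr1 and Clec9a too low, summed to 17.5 to 37.6, 17.0 to 27.0, 23.7 to 47.9 and 23.2 to 25.2 CPM. The GFP+ ratio of anti-PD-L1 to non-treated means was 1.083 with all libraries and 0.871 without KT13 and KT21. The sum of 47.9 CPM was that of KT21, 37.6 CPM of it Itgax. Of the 5 tested, 3 were below 0 in GFP+ (median -0.47) and 2 in GFP- cells (median 0.16). Over 10 libraries 5 of 6 were below 0 in GFP+ cells (median -0.74). Itgax, the CD11c gene, was at 16.9 ± 6.31 and 22.5 ± 13.4 in GFP+ and at 14.8 ± 3.22 and 13.9 ± 4.95 CPM in GFP- libraries. Clec10a, a lectin of dendritic cells and macrophages, was higher after anti-PD-L1 in mean, at 3.78 ± 0.747 and 5.51 ± 0.791 in GFP+ and at 1.96 ± 0.596 and 6.30 ± 3.91 CPM in GFP- libraries.

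Most T cell genes ran the other way after anti-PD-L1. Of the 12 listed, 12 had a log2 fold change above 0 in GFP+ and 9 in GFP- cells, with medians of 0.20 and 0.15. The 12 listed summed to 5544 to 6019 CPM in GFP+ non-treated, 6576 to 6838 in GFP- non-treated, 6428 to 8475 in GFP+ anti-PD-L1 and 7168 to 7774 in GFP- anti-PD-L1 libraries, and the part of this in the result was not tested. Thy1, which encodes a surface glycoprotein of T cells, was at 778 ± 35.6 and 995 ± 194 CPM in GFP+ and at 1020.0 ± 33.7 and 1115 ± 77.2 in GFP- libraries before and after treatment. Cd8a was at 830.0 ± 30.8 CPM in GFP+ non-treated, 1148 ± 52.3 in GFP- non-treated, 1257 ± 98.1 in GFP+ anti-PD-L1 and 1327 ± 45.1 in GFP- anti-PD-L1 libraries. Over 12 libraries no T cell gene was called in any comparison; over 10, Cd8a (-0.47), Cd8b1 (-0.70) and Lat (-0.57) were lower in GFP+ than GFP- non-treated cells and Cd8a was higher after anti-PD-L1 in GFP+ cells (0.55), on the log2 scale (edgeR). Of 7 CD4 and natural killer genes 6 were tested, Cd4 being too low, and they summed to 148 to 220.2 CPM, 142 to 196, 117 to 244 and 194 to 225 CPM in the order of conditions used above. Klrb1c, the NK1.1 gene, was at 49.0 ± 2.14 in GFP+ and 21.6 ± 7.73 CPM in GFP- non-treated libraries, which edgeR called over 10 libraries (adjusted p = 0.0159) and not over 12 (adjusted p = 0.157). After anti-PD-L1 Klrb1c was likewise higher in GFP+ libraries, at 41.1 ± 3.28 against 16.2 ± 2.20 CPM in GFP- libraries. Klre1, a natural killer receptor gene, was at 104 ± 29.6 in GFP+ and 113 ± 25.1 CPM in GFP- non-treated and at 131 ± 78.4 and 166 ± 19.3 CPM in anti-PD-L1 libraries. Set against the reads of the 12 T cell genes, the 10 transcripts made 9.56% ± 1.45 in GFP+ non-treated, 6.80% ± 1.02 in GFP- non-treated, 5.46% ± 1.54 in GFP+ anti-PD-L1 and 4.36% ± 1.07 in GFP- anti-PD-L1 libraries (SD, n = 3). On this scale the mean after anti-PD-L1 was 0.571 times the non-treated mean in GFP+ and 0.641 times in GFP- cells, and GFP+ was 1.41 times GFP- in non-treated and 1.25 times in anti-PD-L1 mice, so the direction was that of the CPM scale.

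The genes outside the 10 whose pattern was most like their mean over the 12 libraries were Cxcl16 (Pearson 0.957), Stxbp6 (0.939), Wfdc18 (0.925), Set (0.923), Cd63 (0.906), H2-Eb1 (0.903), Tgfbi (0.902) and Cyp4f18 (0.896). With the condition means removed these correlations ran from 0.756 for Cyp4f18 to 0.905 for Stxbp6. Cxcl16, a chemokine of macrophages and dendritic cells that binds CXCR6 on T cells, was at 11.7 ± 1.90 CPM in GFP+ non-treated, 9.06 ± 2.37 in GFP- non-treated, 6.01 ± 3.26 in GFP+ anti-PD-L1 and 3.47 ± 1.18 in GFP- anti-PD-L1 libraries. Tgfbi, a matrix protein that macrophages secrete, was at 22.8 ± 4.11, 18.6 ± 7.13, 10.99 ± 5.13 and 10.6 ± 3.26 CPM in the same order, and Cd63, a tetraspanin of late endosomes, at 29.6 ± 1.66, 18.6 ± 5.69, 11.4 ± 5.90 and 10.5 ± 4.48 CPM. Wfdc18, a secreted protein of the whey acidic protein family, was at 55.6 ± 21.98, 47.2 ± 21.3, 28.5 ± 15.1 and 22.6 ± 13.5 CPM. Set, a nuclear protein, varied far less, at 522 ± 1.20, 493 ± 31.0, 475 ± 23.0 and 464 ± 35.0 CPM, and Stxbp6 and Cyp4f18 had 0 reads in at least 1 anti-PD-L1 library.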

How the data were processed

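RNA of sorted CD8+ cells was made into QuantSeq 3′ libraries. The authors deposited raw counts per Ensembl gene for 12 libraries; per the study's methods and the submitters' processing notes, reads were trimmed with Cutadapt (version 1.7 in the notes), mapped by HISAT2 (mm10) and assigned to genes by featureCounts (Subread 1.6.4 in the notes). Handling of strand and multiply aligned reads is not given in the sources used here. Symbols came from GENCODE vM21 and matched 52403 of 52636 identifiers.

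Counts were TMM-normalized in edgeR 4.0.16 (R 4.3.3), genes were kept by filterByExpr (14173 over 12 libraries, 14747 over 10), and quasi-likelihood tests were run in 1 fit over the 4 conditions without covariates, adjusted by Benjamini-Hochberg over all genes and called at an adjusted p under 0.05. The script was tested on simulated data. DESeq2 1.42.0, upper-quartile scaling, other filters, fits of the compared groups alone and omission of libraries served as alternatives. Correlations used log2(CPM + 0.5). Between libraries of a condition the counts differed beyond sampling noise (chi-square per degree of freedom at least 9.65), so each was counted once.

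The members and lists were chosen with earlier results of these data known. Beside the members, each list is represented by up to 4 called genes or else by its 2 of highest mean CPM, and the 8 genes most like the members' mean are named; Lyz1, Fdft1, Hmgxb3 and Csf1r's ligand are named for their relation to a member. Libraries are pools of 3 mice and the labels give no batch or pairing, so the tests treated all libraries as independent. The p-values set a difference between conditions against the spread between libraries of a condition, estimated jointly over the 4 conditions. Reads carry no molecular identifiers, so counts are not independent molecules.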

Additional observations from a re-analysis of the deposited data

How the results depend on the processing

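For the members' counts of calls, the GFP comparisons and the interaction gave 0 of 10 under every alternative run. After anti-PD-L1, where edgeR called 0 over 12 libraries, DESeq2 called 1 in GFP+ and 1 in GFP- cells, keeping all genes with at least 1 count called 4 in GFP+ and 3 in GFP- cells, the fit without KT13 and KT21 called 1 in GFP+ and 2 in GFP- cells, and the fit of only the 2 groups compared called 2 in GFP- cells. Leaving out any single library gave 0 to 0. The cause was not tested. No direction of a called value reversed, and the summed levels moved by less than 1 SD of their condition under each scaling of CPM. Per 1000 reads of 6 T cell genes (Cd3d, Cd3e, Cd3g, Cd8a, Cd8b1 and Trac) the ratio of anti-PD-L1 to non-treated sums was 0.551 against 0.715 in GFP+ and 0.616 against 0.710 in GFP- cells, and that of GFP+ to GFP- sums 1.38 against 1.20 in non-treated and 1.23 against 1.21 in anti-PD-L1 mice. These moves were below the SD of the ratio propagated from both conditions (0.172, 0.174, 0.227 and 0.348). That SD measures the spread between libraries and not the effect of a change of scale. Cd8a, among these 6 genes, was itself higher in mean after anti-PD-L1 in both GFP fractions. Over all genes the calls moved further: in the non-treated GFP comparison 1 over 12 libraries became 53 with DESeq2, 78 without the filter and 50 without KT13 and KT21; after anti-PD-L1, 4 became 47, 49 and 25; for treatment, 2 became 93, 123 and 83 in GFP+ and 0 became 33, 60 and 55 in GFP- cells; the interaction gave 10 without the filter and 0 otherwise.

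With 3 pools a condition and 38 to 338 reads of Csf1r, small differences were not detectable. Library codes run KT13 to KT18 for non-treated and KT19 to KT24 for anti-PD-L1, so anything that followed the codes cannot be told apart from treatment. No paired analysis was run, because the labels share no replicate numbers between conditions. Whether a GFP+ and a GFP- library came from the same mice is not given in the sources used here. The unpaired tests take no account of it.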
